A study of Rattus norvegicus with 34 samples.

Results

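The left ventricles of rats with a moderate myocardial infarct (M-MI) were compared with those of rats with a small infarct (S-MI), the pair of infarct sizes whose arrays the labels both describe as compensated injury, a description that L-MI replicate 1, of a large infarct, also carries. The comparison holds 12 of the 34 arrays of the series, 6 of M-MI and 6 of S-MI, chosen by the sample titles, and all 29214 transcript clusters of the array, of which 15465 carry the name of 1 gene. A transcript cluster groups the probes of 1 gene or transcript. Male Wistar rats had the proximal left coronary artery tied, and left ventricular (LV) RNA was hybridized 2 months later to Affymetrix Rat Gene 1.0 ST arrays, 1 array for each biological replicate. The rats were sorted into infarct sizes by the study, from wall motion seen in echocardiography, and the LV tissue of infarcted rats was the part without visible scar. The model described below also uses the LV arrays of 5 rats with a large infarct (L-MI), 4 of them described as decompensated, and of 6 sham-operated rats, whose whole left ventricle was taken, for its estimate of the spread, while 11 arrays of blood mononuclear cells were not used here. All values are log2 signals, so that a difference of 1 is a fold of 2.

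After a coronary occlusion the lost muscle is replaced by scar, and the surviving wall takes over its work. Stretched cardiomyocytes raise natriuretic peptides and return to genes of the fetal heart, fibroblasts lay down collagens and matricellular proteins, macrophages clear and remodel, and the use of fatty acids as fuel declines when the ventricle fails. The comparison asks whether a larger compensated infarct leaves another expression profile there than a smaller one.

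No transcript cluster differed between M-MI and S-MI by the thresholds that the study used for heart tissue, 1.3-fold or more with p not above 0.05 after Benjamini-Hochberg adjustment, in a linear model of the 23 LV arrays in limma. The count was 0 higher in M-MI (0%) and 0 lower (0%), and the smallest adjusted p of limma was 0.188. Analysis of variance without moderation likewise called 0, with 3635 at an unadjusted p under 0.05. At an unadjusted p under 0.05, 1736 transcript clusters were higher in M-MI (5.94%) and 1910 were lower (6.54%), together 12.5% of those tested. Without S-MI replicates 4 and 5, which lay apart from the other S-MI arrays on the first principal component, there were 1935 in both directions together (6.62%) and the smallest adjusted p was 0.606.

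The sizes of difference in array signal that these arrays leave room for were small for most genes. In the study quantitative PCR tended to show larger increases than the arrays, so that these intervals need not bound the difference in RNA. The 95% interval of M-MI minus S-MI lay within a fold of 1.3 in both directions for 24957 transcript clusters (85.4%) and for 14267 of the named ones (92.3%), and within a fold of 1.5 for 96.1% of all. For 147 transcript clusters, 14 of them named, the interval reached past a fold of 2. The fitted difference itself passed a fold of 1.3 in 318 transcript clusters and a fold of 1.5 in 51, and among the named ones 7 were higher by 1.3 or more and 22 lower. The median difference over all transcript clusters was -0.0074, and its median standard error (SE) was 0.075.

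The correlation of array pairs lay between 0.9938 and 0.9956 within M-MI, between 0.9899 and 0.9953 within S-MI, and between 0.9905 and 0.9955 across the groups. Differences in level between genes set most of such a correlation, so that it does not measure a difference between the groups. The median SD between arrays of a group was 0.111 in M-MI and 0.132 in S-MI, or 0.116 without S-MI replicates 4 and 5.

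Principal components were computed over the 23 LV arrays with each transcript cluster scaled to the same variance. On the first component, which held 17.5% of the variance, the M-MI arrays lay together between 16.9 and 51.4, while the S-MI arrays were spread from -138 to 64.8. S-MI replicates 4 and 5 stood at -138 and -112, next to sham replicates 4 and 6 at -121 and -123. On the first 3 components the M-MI and S-MI means lay 1.62 times as far apart as arrays lay, on average, away from the mean of their own group, with p = 0.026 in a one-sided exact permutation test over all splits of the 12 arrays into 6 and 6. Without S-MI replicates 4 and 5 the ratio was 1.29 with p = 0.1 in the exact permutation test over 210 splits. Leaving out 1 array at a time gave ratios between 1.44 and 2.45 with p between 0.00216 and 0.0476 in the exact permutation test. The highest ratio and the lowest p, the smallest that these splits can give, came without S-MI replicate 3, which stood at the other end of the group, at 64.8.

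**Figure D1:**
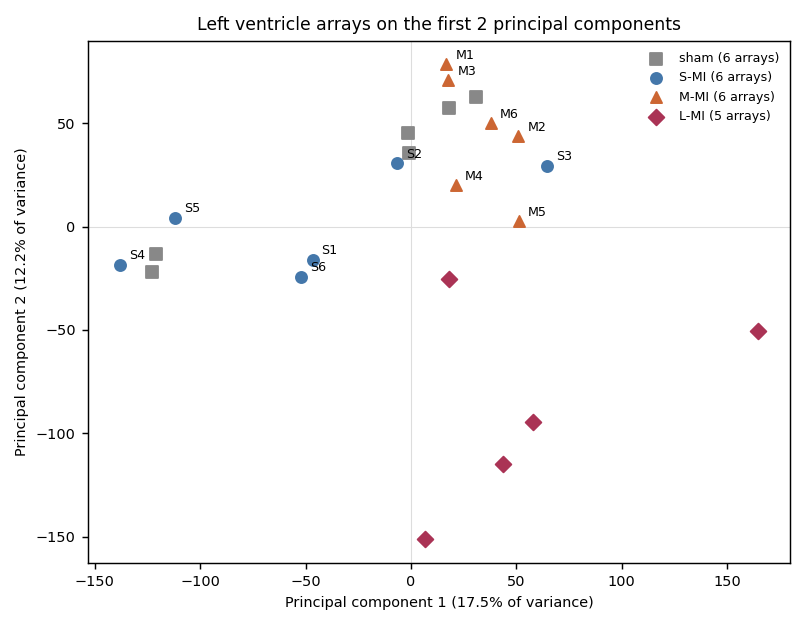
Each point is 1 LV array, placed by its scores on the first and second principal component of all transcript clusters (17.5% and 12.2% of the variance), with shapes and colours for sham, S-MI, M-MI and L-MI and the replicate number beside M-MI and S-MI arrays. The 6 M-MI arrays sit between 16.9 and 51.4 on the first component, and S-MI replicates 4 and 5 sit at -138 and -112, near 2 sham arrays.

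The differences at an unadjusted p under 0.05 also followed the level of signal. Among the 2922 transcript clusters with a mean LV signal of 5.47 to 6.01, 335 were higher in M-MI and 82 lower, and their median difference was 0.052. Among the 2921 with a mean signal of 7.88 to 8.67, 90 were higher and 340 lower, with a median of -0.044. Without S-MI replicates 4 and 5 these medians were 0.031 and -0.029, and the part of such a drift in the counts was not tested.

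Values of single genes are given below as the lowest, median and highest of the 6 arrays of a group, and differences as M-MI minus S-MI in log2 units from the model. None of them passed the thresholds. Of the named genes that were higher in M-MI by a fold of at least 1.3 there were 7, of which 6 are given first.

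Gstm6, a mu-class glutathione transferase of detoxification, had signals of 4.74, 4.94 and 5.22 in M-MI and 4.34, 4.50 and 4.70 in S-MI. All M-MI arrays lay above all S-MI arrays, and the difference of 0.45 (SE 0.10) had an unadjusted p of 1.09e-04 and an adjusted p of 0.188 in limma. M-MI and S-MI arrays did not overlap in this direction in 94 transcript clusters (0.322%), 34 of them named. The signals of Gstm6 were among the dimmer ones on these arrays, and mu-class transferases are alike in sequence, so that near copies may share its probes.

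The other 5 of these overlapped between the groups. Penk, which encodes the precursor of the enkephalin opioid peptides, lay at 11.29, 11.69 and 11.89 in M-MI and 10.05, 11.07 and 12 in S-MI. The M-MI arrays were tightly placed, and S-MI replicate 2 was the lowest at 10.05, for a difference of 0.53 (adjusted p = 0.358 in limma). The value was 0.32 without S-MI replicate 2 and 0.80 without S-MI replicates 4 and 5. Pyroxd2, a pyridine nucleotide-disulphide oxidoreductase, was at 8.65, 8.83 and 8.96 in M-MI and 5.69, 8.55 and 8.77 in S-MI. S-MI replicates 1 and 2, at 7.72 and 5.69, were far below the other 10 arrays, and the difference of 0.82 was 0.35 without S-MI replicate 2.

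Hcn4, the main channel of the pacemaker current, was at 8.62, 9.03 and 10.19 in M-MI and 8.26, 8.71 and 9.59 in S-MI, and M-MI replicate 5 was the highest array, at 10.19. Its difference was 0.40 with adjusted p = 0.554 in limma, and 0.21 without that array.

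Vil1, an actin bundler of epithelial microvilli, lay at 4.86, 5.05 and 5.17 in M-MI and 3.50, 4.57 and 5.08 in S-MI, with S-MI replicates 1, 4 and 5 low. Its difference was 0.55, or 0.21 without S-MI replicates 4 and 5. Dusp15, a dual-specificity phosphatase, was higher by 0.45 (adjusted p = 0.383 in limma), with M-MI replicates 1 and 6 as low as the S-MI arrays and S-MI replicate 3 as high as the M-MI arrays.

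Among the named genes lower in M-MI by at least 1.3, the 12 with the smallest p were read. Mc4r, the melanocortin 4 receptor known from the control of appetite, had 6.64, 6.92 and 7.02 in M-MI and 7.26, 7.41 and 7.45 in S-MI. The groups did not overlap, and the difference of -0.52 (SE 0.10) had the smallest unadjusted p among named genes past this fold, 1.87e-05, and an adjusted p of 0.188 in limma. Groups did not overlap in this direction in 129 transcript clusters (0.442%), 79 of them named. Kng1, which encodes kininogen, the precursor of kinins, was at 4.75, 4.93 and 5.24 in M-MI and 5.39, 5.63 and 6.21 in S-MI. The groups stood apart here as well, with a difference of -0.76 (SE 0.15) and an adjusted p of 0.188 in limma. Rats carry closely similar kininogen genes (T-kininogens), and the array has 2 transcript clusters of this name, so which copy the signal comes from is uncertain.

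Or2t48, an olfactory receptor, was the third of the 12 without overlap, at 3.62, 3.81 and 4.21 in M-MI and 4.29, 4.41 and 4.61 in S-MI, dim signals on this array. The large multigene family to which it belongs makes its probes uncertain, and the same holds for Or10ag52b (-0.40), Serpinb9d (-0.47), a protease inhibitor of the serpin family, and Abcg3l3 (-0.38), of the ABC transporter family. Without S-MI replicates 4 and 5 Serpinb9d differed by -0.30.

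Gpm6a, a neuronal membrane glycoprotein that mesothelial cells also make, had the widest difference of these genes, -0.86 (SE 0.32), with 6.66, 6.95 and 7.22 in M-MI and 6.70, 8.20 and 8.43 in S-MI. S-MI fell into separate levels: replicates 1, 2, 5 and 6 lay at 8.10, 8.43, 8.30 and 8.40, and replicates 3 and 4 at 6.90 and 6.70, in the range of M-MI. Its adjusted p was 0.308 in limma. Scand1, a protein with a SCAN domain, was at 10.77, 11.56 and 11.69 in M-MI and 11.61, 11.99 and 12.08 in S-MI. M-MI was split in turn, with replicates 3 and 5 at 10.81 and 10.77 and the other M-MI arrays at 11.55 or above, and the difference was -0.59.

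Gla, the lysosomal alpha-galactosidase A that is deficient in Fabry disease, was at 7.37, 7.57 and 7.79 in M-MI and 7.70, 7.96 and 8.18 in S-MI, with a difference of -0.38 (SE 0.10) and adjusted p = 0.223 in limma. Only the ends of the groups overlapped. Adgrg2, an adhesion receptor of the epididymis, was lower by 0.48 (adjusted p = 0.209), Pik3ap1, an adaptor between immune receptors and phosphoinositide 3-kinase, by 0.41 (adjusted p = 0.286), and Atp6ap1l, related to an accessory subunit of the proton pump, by 0.39 (adjusted p = 0.292), all in limma and all with overlapping groups.

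**Figure D2:**
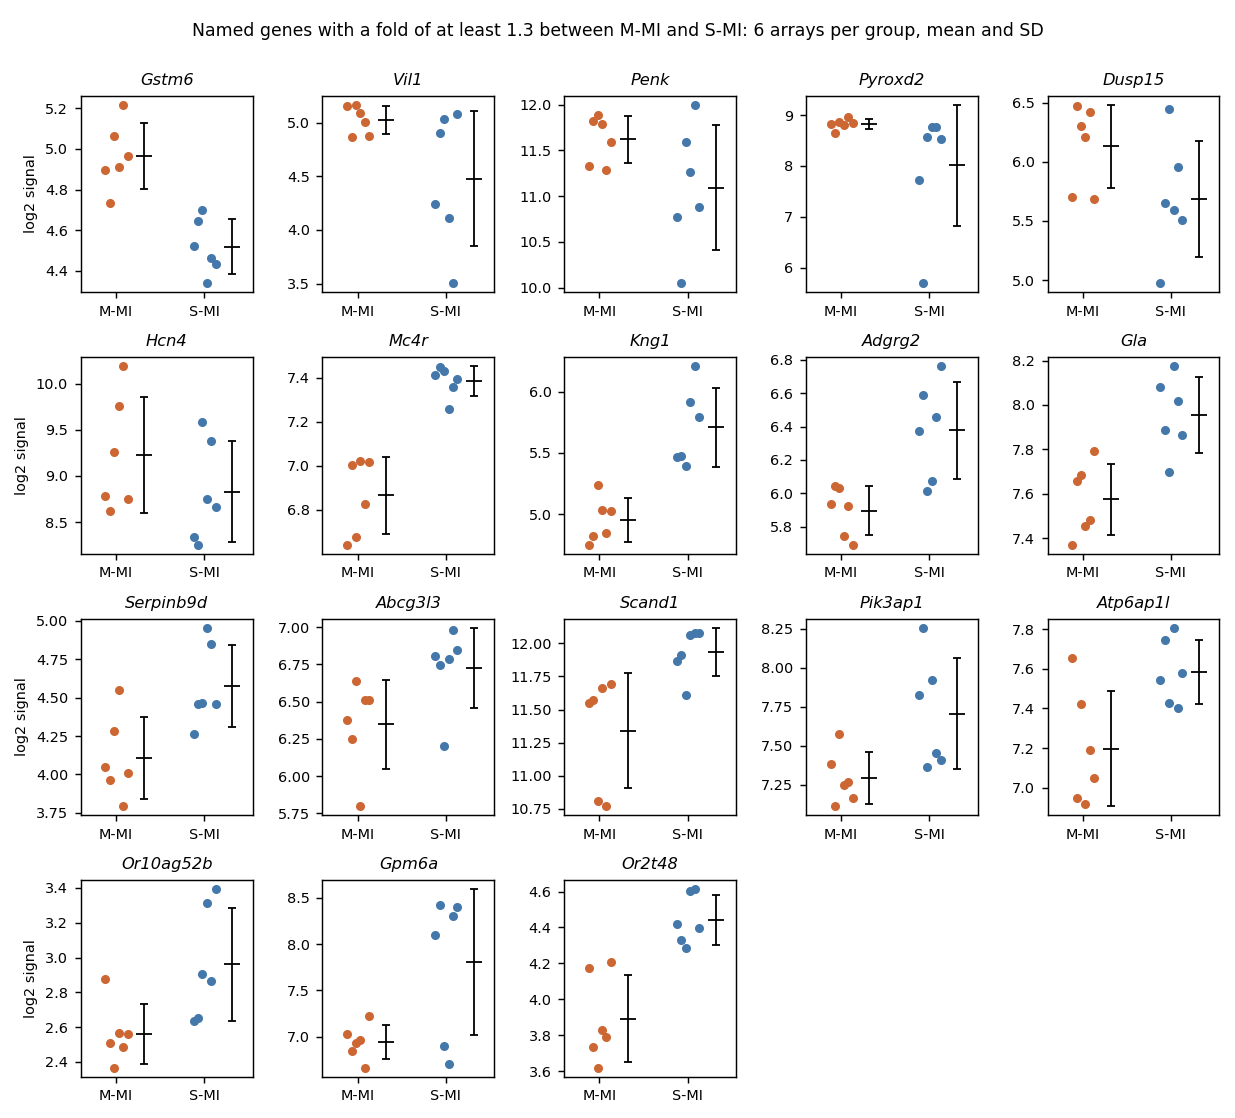
Log2 signal (vertical axis, scaled for each gene) of the 6 M-MI arrays (left, orange) and the 6 S-MI arrays (right, blue) of 18 of the named genes with the leading differences; the bar beside the points is the mean with 1 SD. Gstm6, Mc4r, Kng1 and Or2t48 show no overlap of the groups, while Gpm6a, Pyroxd2 and Scand1 hold separate levels within a group.

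Of the genes with smaller folds, some were chosen after their values had been seen because the groups did not overlap and the p was small. Siva1, an inducer of apoptosis, had 7.63, 7.75 and 7.95 in M-MI and 7.98, 8.09 and 8.21 in S-MI, a difference of -0.31 (SE 0.058) and adjusted p = 0.188 in limma. Syf2, a splicing factor, lay lower in M-MI by 0.32, Cbr4, a mitochondrial carbonyl reductase, by 0.36, and Crip1, a small LIM domain protein, by 0.29, all with an adjusted p of 0.188 in limma. In the other direction Scnn1g, the gamma subunit of the epithelial sodium channel, was higher by 0.24 and Trim29, a tripartite motif protein of epithelia, by 0.31. These differences correspond to folds under 1.3, and without S-MI replicates 4 and 5 the genes that were lower stood at -0.26 for Siva1, -0.30 for Syf2, -0.32 for Cbr4 and -0.31 for Crip1.

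The genes of the infarct response, 15 in all, were followed over the 4 groups as a scale for the comparison. They include Hcn4, given above. Of these, 6 were higher in M-MI than in S-MI and 9 lower, with a median of -0.024 that turned to 0.01 with repeated quantile normalization, and none had a p under 0.05. Without S-MI replicates 4 and 5 the median was -0.10. In L-MI against sham, where 608 transcript clusters were higher (2.08%) and 333 lower (1.14%) in the same model, 12 of these 15 genes passed the thresholds. Without L-MI replicate 1 the counts were 544 and 307, and 12 of the 15 genes passed again.

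Nppa, the atrial natriuretic peptide that stretched ventricle makes again, was at 10.60, 11.03 and 12.50 in M-MI and 11.32, 11.45 and 12.03 in S-MI. M-MI spread widely, with replicates 5 and 2 at 12.50 and 11.94 and the others at 11.26 or below, and the difference was -0.24 (SE 0.27) against 1.89 for L-MI minus sham. Nppb, the B-type peptide, was at 11.92, 12.47 and 12.83 in M-MI and 10.50, 12.37 and 12.77 in S-MI, and S-MI replicate 4 alone was at 10.50. Its difference was 0.30, or 0.0077 without S-MI replicates 4 and 5. Acta1 and Myh7, skeletal actin and beta myosin of the fetal heart, differed by -0.17 and -0.074.

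Timp1, an inhibitor of matrix metalloproteinases, was the member with the smallest p (adjusted p = 0.473 in limma), at 8.99, 9.13 and 9.62 in M-MI and 9.10, 9.35 and 9.86 in S-MI. The groups overlapped, with the S-MI median above the M-MI median, for a difference of -0.23 (SE 0.13), and -0.37 without S-MI replicates 4 and 5, while L-MI minus sham was 1.23. Postn, periostin of activated fibroblasts, was at 5.38, 5.86 and 6.34 in M-MI and 5.85, 6.12 and 6.65 in S-MI, a difference of -0.31 beside 3 for L-MI minus sham. Spp1, osteopontin, differed by 0.24 and Fn1, fibronectin, by 0.12, for which M-MI replicate 4 was the highest array at 9.61.

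The fibrillar collagens Col1a1 and Col3a1 differed by 0.032 (95% interval -0.33 to 0.39) and -0.02 (95% interval -0.19 to 0.15), beside 1.20 and 0.57 for L-MI minus sham. Thbs4, a matricellular thrombospondin, differed by -0.043 beside 2.63, and Cp, the copper oxidase ceruloplasmin, by -0.059 beside 1.19. Ccn2, a growth factor of fibrosis, and Tgfb2, a transforming growth factor, differed by 0.039 and -0.024. Of the 15 genes, 4 had an interval within a fold of 1.3 in both directions, Col3a1, Tgfb2 (-0.37 to 0.32), Cp (-0.26 to 0.14) and Myh7 (-0.20 to 0.054), and that of Acta1, for one, did not (-0.49 to 0.16).

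**Figure D3:**
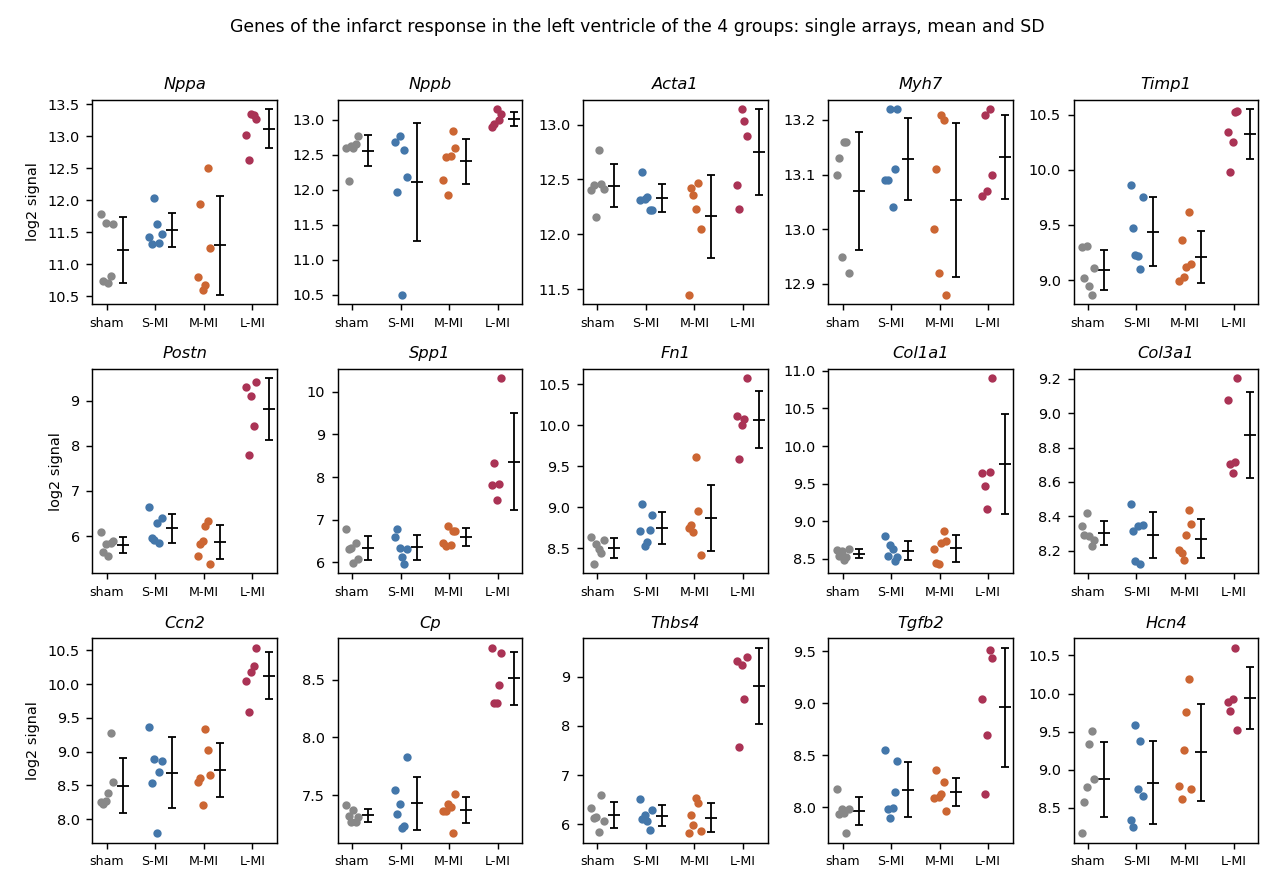
Log2 signal (vertical axis, scaled for each gene) of single LV arrays of sham (grey), S-MI (blue), M-MI (orange) and L-MI (red) for 15 genes of the infarct response, with the mean and 1 SD beside the points. The M-MI and S-MI points overlap in all 15 panels, and S-MI replicate 4 stands at 10.50 in the panel of Nppb.

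Over the 608 transcript clusters that were higher in L-MI than in sham, M-MI lay below S-MI in 392 and above it in 216, with a median difference of -0.046 beside -0.0074 over all. An unadjusted p under 0.05 was reached by 63 lower ones (10.4%, against 6.54% of all) and 6 higher ones (0.987%, against 5.94%). The drift with signal level described above was not taken out here. Its medians over all transcript clusters were 0.052 at signals of 5.47 to 6.01 and -0.044 at 7.88 to 8.67. The part of that drift in the counts of this set was not tested. Against sham the median of the 608 clusters was 0.052 in M-MI and 0.096 in S-MI, comparisons that share the sham arrays, and no transcript cluster was called in either of them. The same sham arrays also chose the set, which by itself can raise both medians, so that their sign is not a result. The median of M-MI minus S-MI over the 608 was -0.064 without S-MI replicates 4 and 5. Over the 333 clusters that were lower in L-MI, 152 were above and 181 below, with a median of -0.01, which turned to 0.027 without S-MI replicates 4 and 5, and 8 higher and 12 lower at that p.

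Lists of genes of related function (22) and of cell type markers (18) were then described by counts, beside the background of 5.94% higher and 6.54% lower at an unadjusted p under 0.05. No member of any list passed the thresholds. With the infarct response genes there were 41 lists, and leaving out 1 of the 12 arrays turned the sign of the median in 23 of them, so that counts of higher and lower members describe these arrays alone. In a bulk sample, fewer cells of a type and less RNA per cell cannot be told apart.

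Markers of cardiomyocytes were bright and close between the groups. The mean of 12 cardiomyocyte markers was 13.09 to 13.17 in M-MI and 13.11 to 13.14 in S-MI. It was 13.01 to 13.1 in L-MI and 13.13 to 13.16 in sham. Every one of the 12 had an interval within a fold of 1.3, as had 92.3% of all named transcript clusters. Ryr2, the calcium release channel, and Ckm, muscle creatine kinase, differed by 0.064 and 0.048. Of 16 measured sarcomere and Z-disc genes all 16 intervals lay within that fold, 10 higher and 6 lower, with a median of 0.011 (Actn2 0.047, Myh6 0.075), and the list's sign changed with repeated quantile normalization. All 19 measured genes of the respiratory chain and citrate cycle stayed within it too, 16 higher and 3 lower, with a median of 0.016, or 11 and 8 with a median of 0.008 after repeated quantile normalization. Among them Idh3a, a subunit of isocitrate dehydrogenase, was higher by 0.13 (adjusted p = 0.399 in limma) and Uqcrc1, of complex III, by 0.056.

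Fuel genes were near 0. Of 27 measured genes of fatty acid uptake and oxidation 18 were higher and 9 lower, with a median of 0.0083, and the median turned to -0.00028 with median centring. M-MI replicate 3 was the highest array for 16 of the 27, and without it 9 were higher and 18 lower, with a median of -0.025. Cpt2, of the carnitine shuttle, and Eci1, an isomerase of beta oxidation, had the smallest p and differed by 0.07 and -0.10. Of 20 genes of glucose and ketone use 12 were higher and 8 lower. Of their intervals 19 lay within a fold of 1.3, beside 92.3% of all named transcript clusters. Pdk2 and Pdk1, kinases that restrain pyruvate dehydrogenase, were higher by 0.093 (adjusted p = 0.372 in limma) and 0.11 (adjusted p = 0.426).

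Calcium handling genes were about as close between the groups as named genes in general, while ion channel and fetal genes were more spread. Of 17 calcium handling genes 7 were higher and 10 lower, with 16 intervals within a fold of 1.3, beside 92.3% of all named transcript clusters. Cacna2d1, a calcium channel subunit, differed by -0.087. Of 20 ion channel and conduction genes 13 were higher and 7 lower, with 13 intervals within that fold. The share was 85.4% over all transcript clusters and 92.3% over the named ones. Kcnip2, which tunes the transient outward current, was at 10.93, 11.13 and 11.20 in M-MI and 10.81, 10.91 and 11.13 in S-MI. Its difference of 0.16 (SE 0.072) had adjusted p = 0.369 in limma, with overlapping groups. Of 20 genes of adrenergic and angiotensin signalling 7 were higher and 13 lower, with Pde3a, a phosphodiesterase, at -0.10 and Adra1a, the alpha-1A receptor, at -0.12. Of 15 natriuretic peptide and fetal genes 8 were higher and 7 lower, with 8 intervals within a fold of 1.3. Hcn2, a pacemaker channel, and Nppc, the C-type peptide, differed by 0.18 and 0.10.

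Fibrillar matrix genes had a median near 0. However, 14 of 22 intervals lay within a fold of 1.3, against 85.4% of all transcript clusters and 92.3% of the named ones. Of 22 fibrillar matrix genes 12 were higher and 10 lower, with a median of 0.0052, and 1 was lower at p under 0.05, Mfap5, a protein of elastic microfibrils, at 8.86, 9.09 and 9.52 in M-MI and 9.24, 9.42 and 9.63 in S-MI. All S-MI arrays lay above all M-MI arrays but replicate 5, for a difference of -0.31 (SE 0.10) and adjusted p = 0.285 in limma. Vcan, the proteoglycan versican, was lower by 0.30 (adjusted p = 0.406). The median of this list was -0.0034 with median centring and 0.02 with repeated quantile normalization, so that its direction depends on the scaling.

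Of 20 matrix proteases and inhibitors 6 were higher and 14 lower, with a median of -0.053 and 15 intervals within a fold of 1.3. Loxl2, a crosslinker of collagen, was lower by 0.17 (adjusted p = 0.385 in limma), and Adamts2, which trims procollagen, by 0.10 (adjusted p = 0.437). Of 13 matricellular genes 6 were higher and 7 lower, with only 5 intervals within that fold, and Thbs1, thrombospondin 1, and Ccn4 differed by -0.32 and 0.15. Of 18 genes of TGF-beta and BMP signalling 9 were higher and 9 lower, with Smad3, a transducer of the pathway, at -0.15 (adjusted p = 0.316 in limma) and Inhbb, an activin subunit, at 0.12 (adjusted p = 0.4).

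Fibroblast markers gave 4 higher and 8 lower of 12, or 7 and 5 without M-MI replicate 3, where the median of -0.018 turned to 0.0075. Among them were Pdgfra and Tcf21, which mark resting fibroblasts, with differences of -0.14 and -0.14. Markers of activated fibroblasts of scar gave 8 higher and 3 lower of 11, with a median of 0.087 that was 0.0096 without S-MI replicates 4 and 5. Meox1, a homeobox gene of activated fibroblasts, was higher by 0.21 (adjusted p = 0.295 in limma), at signals of 5.25, 5.35 and 5.45 in M-MI and 5.01, 5.09 and 5.32 in S-MI, while Postn in the same list was lower. The mean of these 11 markers was 7.06 to 7.39 in M-MI and 7.04 to 7.30 in S-MI, beside 7.85 to 8.65 in L-MI and 7.02 to 7.19 in sham.

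Macrophage markers were the list with the lowest median. Of 15 markers 12 were lower, with a median of -0.083, and 3 (Lgals3, Cd14 and Mrc1) had p under 0.05. Lgals3, galectin 3, was at 7.83, 7.91 and 8.07 in M-MI and 8.09, 8.16 and 8.61 in S-MI. The groups did not overlap, and the difference was -0.33 (SE 0.10) with an adjusted p of 0.265 in limma. Cd14, a receptor for bacterial lipid, was lower by 0.27 (adjusted p = 0.38), as was Mrc1, a scavenging receptor for mannose, by 0.20 (adjusted p = 0.381). Cd68, Csf1r and C1qa, which define macrophages, differed by -0.065, -0.061 and -0.021. These and Mrc1 were named after their values had been seen. The mean of the 15 markers was 7.6 to 7.98 in M-MI and 7.85 to 8.18 in S-MI, beside 8.14 to 8.65 in L-MI and 7.66 to 7.86 in sham. M-MI replicate 1 at 7.6 and S-MI replicate 6 at 8.18 stood apart, and the other arrays lay at 7.89 to 7.98 in M-MI and 7.85 to 7.98 in S-MI. S-MI replicate 6 was the highest array for 8 of the 15 markers. Without M-MI replicate 1 the list's median was -0.013, with 5 higher and 10 lower, and without S-MI replicate 6 it was -0.039. The list's median was -0.092 without S-MI replicates 4 and 5, with 1 marker lower at that p, and -0.10 without M-MI replicate 3. Transcript clusters of all kinds leaned the same way near the level of the list's mean. Their medians were -0.033 at signals of 7.2 to 7.88 and -0.044 at 7.88 to 8.67. The part of that drift in this list was not tested.

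Other immune lists were mixed. Of 13 T and NK cell markers 5 were higher and 8 lower, and Klrd1, the CD94 receptor of NK cells, was at 6.07, 6.32 and 6.69 in M-MI and 6.42, 6.70 and 6.92 in S-MI. The difference was -0.35 (SE 0.11) with adjusted p = 0.272 in limma, 3 of the 6 S-MI arrays lying above all M-MI arrays, while Lck, a kinase of T cells, was at -0.18. Of 6 measured B and plasma cell markers 5 were higher, with a median of 0.086 that was 0.016 without S-MI replicates 4 and 5, and with Blk at 0.14 (adjusted p = 0.333) and Fcrla at 0.15 (adjusted p = 0.457). Of 11 neutrophil and mast cell markers 5 were higher and 6 lower, with Ms4a2, a chain of the IgE receptor, at -0.27 (adjusted p = 0.289) and S100a8 at -0.17 (adjusted p = 0.461), both from limma and both dim on these arrays.

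Of 26 chemokines and cytokines 12 were higher and 14 lower. Cxcl1 and Cx3cl1, which draw neutrophils and monocytes, were higher by 0.14 (adjusted p = 0.356 in limma) and 0.18 (adjusted p = 0.385). Of 16 antigen presentation genes 6 were higher and 10 lower, with Ciita, the regulator of class II genes, at 0.17 (adjusted p = 0.285) and RT1-Ba, a class II chain, at 0.10. Of 19 complement and acute phase genes 8 were higher and 11 lower, with F13a1, a clotting factor also made by macrophages, at -0.31 (adjusted p = 0.333) and A2m, a protease inhibitor, at 0.15 (adjusted p = 0.4). The signs of the medians of the chemokine and complement lists turned with repeated quantile normalization.

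Interferon-stimulated genes, which cells raise against viruses through the factors STAT and IRF, did not separate the groups but set 1 rat apart. The 20 measured members gave 12 higher and 8 lower, with a median of 0.029, and Gbp2 and Ifit1, the members with the smallest p, differed by 0.14 and -0.14. Of the 20 genes 17 were highest in M-MI replicate 3. The list's mean was 8.70 in that array and 7.91 in M-MI replicate 6, and 7.34 to 7.5 in the other M-MI arrays, against 7.47 to 7.86 in S-MI, 7.32 to 7.76 in L-MI and 7.46 to 7.70 in sham. Without M-MI replicate 3, 3 genes were higher and 17 lower, with a median of -0.16. The median also turned to -0.025 without M-MI replicate 6.

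Mx1, an antiviral dynamin-like GTPase, was at 9.46 in M-MI replicate 3 and at 7.65 in replicate 6, and between 6.39 and 6.98 in the other M-MI arrays, against 7.08 to 7.79 in S-MI. Irf7, the factor that amplifies the interferon response, was at 9.96 and 9.22 in the same 2 arrays, at 7.75 to 7.99 in the other M-MI arrays and at 7.71 to 8.65 in S-MI. Mx2, Oas1a, Isg15, Usp18 and Ifit3 had their highest value of the 12 arrays in M-MI replicate 3 too, at 9.90, 8.96, 8.31, 9.60 and 7.90. These genes were chosen after their values had been seen.

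The bases just before the start of 3 of these genes hold the letters of the core of the interferon response element. They are shown because the 3 genes were high together in 1 array. The core searched for was GAAA, a gap of 2 bases and GAAA again, on both strands, in the 250 bases before each gene's start in RefSeq, build GRCr8. It stood in 3.41% of all 33469 promoters and in 11 of the 15 promoters of listed genes that were found there. The sequences run 5′ to 3′ from base -120 to base -1, with matches in capitals, which include the reverse complement of the core. In Oas1a a pair of matches overlaps. The windows are chr1:205800024-205800143 (minus strand), chr12:41330346-41330465 (plus strand) and chr1:241527206-241527325 (plus strand).
Irf7: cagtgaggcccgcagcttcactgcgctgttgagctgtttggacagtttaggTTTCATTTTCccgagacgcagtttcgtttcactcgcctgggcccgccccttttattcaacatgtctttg
Oas1a: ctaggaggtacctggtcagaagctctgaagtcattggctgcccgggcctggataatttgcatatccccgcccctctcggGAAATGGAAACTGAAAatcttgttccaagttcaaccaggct
Ifit3: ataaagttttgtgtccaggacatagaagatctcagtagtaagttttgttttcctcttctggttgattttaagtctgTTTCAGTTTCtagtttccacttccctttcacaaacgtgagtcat
The matches start at base -69 in Irf7, at -41 and -35 in Oas1a and at -44 in Ifit3. The window of Mx1 held no match. No promoter of Mx2, Isg15 or Usp18 was found there, so that these genes were not searched. A match describes letters in this window and is not a measured site.

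Genes of the circadian clock likewise differed between single arrays of both groups rather than between the groups. Of 16 measured members 5 were higher and 11 lower, with a median of -0.022 that turned to 0.00082 with repeated quantile normalization, and none had p under 0.05. Bmal1, an activator of the clock, was at 7.18, 8.01 and 8.79 in M-MI and 7.26, 7.98 and 9.06 in S-MI, high in M-MI replicates 1 and 6 (8.79 and 8.62) and S-MI replicate 1 (9.06). In the same arrays Per3, a repressor under its control, was low, at 7.32, 7.27 and 7.01. In M-MI replicate 3 and S-MI replicates 2 and 4 Bmal1 was low (7.18, 7.27 and 7.26) and Per3 high (8.53, 8.56 and 8.88). Npas2, which can act in place of Clock, followed Bmal1, and Nr1d2, a repressor of Bmal1, followed Per3. Bmal1, Npas2 and Nr1d2 were chosen after their values had been seen. Clock itself differed by 0.093 and Per3 by -0.25. Hours of tissue collection are not given in the sources used here.

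**Figure D4:**
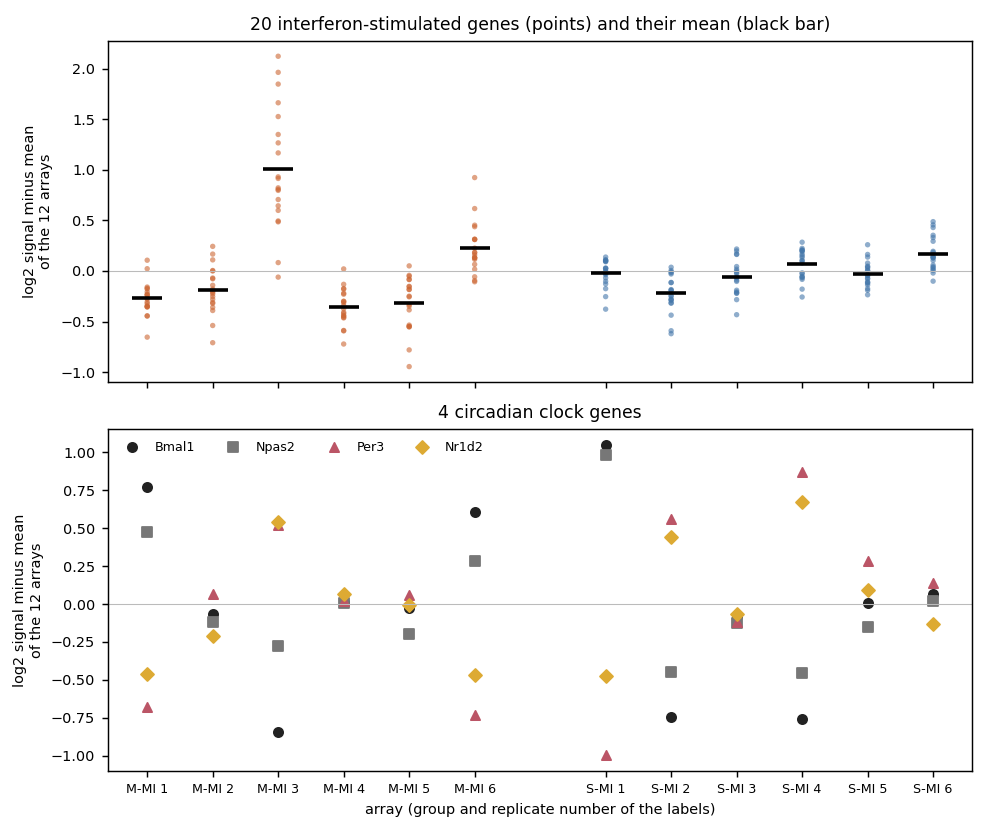
Log2 signal minus the mean of the 12 arrays (vertical axis) for each M-MI array (left) and S-MI array (right): above, 20 interferon-stimulated genes as points with their mean as a bar, below, the clock genes Bmal1, Npas2, Per3 and Nr1d2. The interferon genes are highest in M-MI replicate 3, where Mx1 is at 9.46, and Bmal1 and Per3 lie on opposite sides of the mean in M-MI replicates 1, 3 and 6 and in S-MI replicates 1, 2 and 4.

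Medians of the lists of stress and growth were near 0 with all arrays. Of 19 immediate early genes, which respond within minutes to a stimulus, 15 were higher and 4 lower, with a median of 0.04 and none at p under 0.05 (Fosl1 -0.077, Ier3 -0.16). The list's mean was 7.97 and 8.0 in M-MI replicates 4 and 5, which held the highest value of 6 and 7 of the 19 genes, and 7.50 to 7.74 in the other M-MI arrays, against 7.64 to 7.78 in S-MI. Without M-MI replicate 5 there were 9 higher and 10 lower, with a median of -0.0011. Of 16 genes of heat shock and the unfolded protein response 2 were higher and 14 lower, with a median of -0.029 and again none at that p (Sdf2l1 -0.11, Asns -0.091). The median of this list kept its sign without any 1 of the 12 arrays, and was -0.075 without S-MI replicates 4 and 5. Of 20 genes of oxidative stress 9 were higher and 11 lower (Cat 0.073, Gclc -0.11), and of 19 cell cycle genes 7 were higher and 12 lower (Ccnb1 -0.20, Ccna2 0.12). Of 20 genes of hypoxia and angiogenesis 8 were higher and 12 lower, with Vegfb, a growth factor of coronary vessels, at 11.83, 12.01 and 12.18 in M-MI and 11.74, 11.84 and 11.93 in S-MI. All M-MI arrays but replicate 2 lay above all S-MI arrays, by 0.18 (SE 0.06) with adjusted p = 0.286 in limma, while Pgf, placental growth factor, was lower by 0.21 (adjusted p = 0.345).

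Most vessel markers were close between the groups. Of 12 endothelial markers 4 were higher and 8 lower, all with intervals within a fold of 1.3, and Pecam1, which joins endothelial cells, was lower by 0.12 (adjusted p = 0.36 in limma) and Egfl7 by 0.11. Of 12 smooth muscle and pericyte markers 8 were higher, again with all intervals within that fold (Abcc9 0.10, Cspg4 0.10). Among all named transcript clusters 92.3% had such an interval. Of 6 lymphatic markers 2 were higher and 4 lower (Pdpn -0.12, Lyve1 -0.13), and without M-MI replicate 3 the counts were 4 and 2 and the median of -0.04 turned to 0.015. All 6 measured red cell markers were higher in M-MI, 2 of them with p under 0.05, Slc4a1, the anion exchanger of red cells, at 0.33 (adjusted p = 0.33) and Epb42 at 0.18 (adjusted p = 0.375), with a median of 0.11, or 0.21 without S-MI replicates 4 and 5. With median centring 1 was lower, and the mean of the 6 was 7.93 to 8.20 in M-MI and 7.68 to 8.35 in S-MI. S-MI replicate 5 was the highest of the 12 arrays for 4 of the 6 markers.

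Lists of neighbouring tissues differed in single arrays. The mean of 9 atrial markers was 8.96 to 9.58 in M-MI and 8.98 to 9.31 in S-MI, with M-MI replicate 5 highest, and Myl7, the atrial light chain, was at 6.98, 7.74 and 9.37 in M-MI and 7.15, 8.58 and 9.57 in S-MI, high in M-MI replicate 5 and S-MI replicates 2, 4 and 5. Stard10 and Dkk3, the atrial markers with the smallest p, differed by 0.14 and -0.11. M-MI replicate 5 was also the highest array of Nppa, Hcn4 and Hamp, which encodes hepcidin, the regulator of iron (11.19, against 8.65 to 10.06 in the other M-MI arrays and 8.65 to 10.49 in S-MI). The part of atrial or other tissue in these values was not tested.

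The mean of 10 epicardial and mesothelial markers was 6.53 to 6.78 in M-MI and 6.28 to 7.02 in S-MI. Krt19 and Msln, keratin 19 and mesothelin of the mesothelium, were high in S-MI replicates 2 and 6 (7.29 and 7.93 for Krt19, 7.39 and 7.57 for Msln), and S-MI replicate 4 had the lowest values of both (5.41 and 5.49). Gpm6a, on this list, was high in S-MI replicates 2 and 6 but also in 1 and 5, where Krt19 and Msln were not raised. Krt7 was higher in M-MI by 0.34 (adjusted p = 0.295 in limma), or by 0.20 without S-MI replicates 4 and 5. Hamp, Msln, Krt19 and Myl7 were chosen after their values had been seen.

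Skeletal muscle markers gave 7 higher and 4 lower of 11 (Myh1 -0.16, Myh4 0.12), white fat 7 and 4 of 11 (Lep 0.17, Lipe -0.13), and brown fat 6 and 3 of 9, a list that holds Kng1 (Elovl3 -0.14). Markers of Schwann cells and neurons gave 7 higher and 3 lower of 10, with Nts, neurotensin, at -0.24 (adjusted p = 0.27 in limma) and Mbp, a myelin protein, at 0.16 (adjusted p = 0.315). Cartilage and valve markers gave 10 higher and 1 lower of 11, with a median of 0.10, and Cnmd, a cartilage glycoprotein, at 0.27 (adjusted p = 0.313) and Col2a1, its collagen, at 0.19 (adjusted p = 0.407). Without S-MI replicates 4 and 5 the median of the cartilage list was 0.076 and Cnmd was at 0.12.

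**Figure D5:**
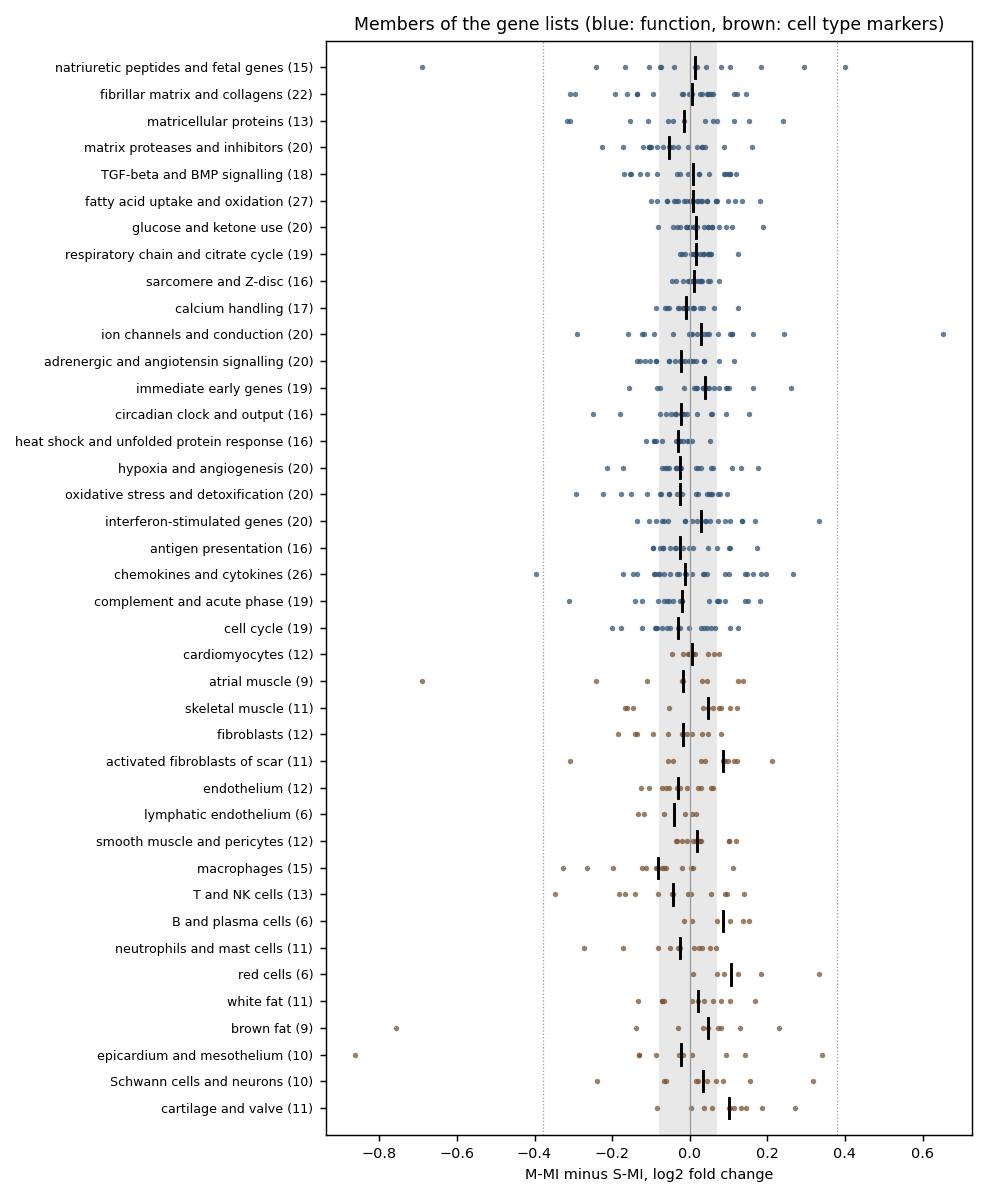
Each point is the M-MI minus S-MI log2 fold change of 1 measured gene of a list (number measured in brackets), blue for lists of function and brown for cell type markers, with the median as a black bar. The grey band is the middle 50% of all transcript clusters and the dotted lines mark a fold of 1.3. The medians lie between -0.083 for macrophages and 0.11 for red cells, and few points pass a dotted line.

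The widest spread within the groups came from genes that differed between single rats of both. Retsat, a retinol saturase, was at 9.34, 9.41 and 9.40 in M-MI replicates 1, 3 and 6 and at 9.25, 9.42 and 9.43 in S-MI replicates 1, 5 and 6, and between 10.92 and 11.98 in the other 6 arrays. H2az1, a histone variant, was at 8.12 and 8.21 in M-MI replicates 1 and 6 and at 7.97 in S-MI replicate 5, and at 9.53 or above in the others. Cyp2e1, a cytochrome P450 of the liver that also metabolizes ketones, was at 6.81, 8.65 and 9.49 in M-MI and 7.74, 8.71 and 9 in S-MI, with M-MI replicates 4 and 5 low at 7.22 and 6.81. Retsat, H2az1 and Cyp2e1 were chosen after their values had been seen, and their M-MI minus S-MI differences, -0.26 (SE 0.56), -0.47 (SE 0.45) and -0.18 (SE 0.39), had adjusted p of 0.868, 0.668 and 0.873 in limma.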

How the data were processed

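Total LV RNA was hybridized to 1-colour Affymetrix Rat Gene 1.0 ST arrays. The deposited log2 values were made by the authors in Partek with RMA (background correction, quantile normalization and summarization per transcript cluster), whose versions are not given in the sources used here. No source gives the base of the logarithm, and the range of the values fits log2. RMA draws the arrays' distributions together, which removes a shift shared by most genes. Genes were named from the platform annotation for 15310 transcript clusters and from a supplementary table for 155, while 323 carried several symbols.

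A linear model with 4 groups was fitted to the 23 LV arrays with limma 3.58.1 in R 4.3.3 (eBayes, Benjamini-Hochberg adjustment over 29214 transcript clusters), and a call needed an adjusted p of at most 0.05 and a fold of at least 1.3. Where a gene had several transcript clusters, the one with the highest mean was used. Tables and figures were made in Python 3.11.15 with pandas 2.3.3 and matplotlib 3.10.9. The scripts were tested on simulated data. Named genes were those called, or else the named transcript clusters with a fold of at least 1.3 and the smallest p, up to 12 in a direction, 2 members per list by smallest p, and 15 infarct response genes; 1 gene that the rule names is not reported here, and others are marked as chosen after their values had been seen. The members and lists were chosen with earlier results of these data known. The labels call the arrays biological replicates, and 6 against 6 arrays limit the precision. The alternatives were the 12 arrays alone, analysis of variance, limma-trend, array weights, a filter on the 30% dimmest, other scalings, a replicate block, other thresholds and leaving out arrays. Leaving out S-MI replicates 4 and 5 together, L-MI replicate 1, or arrays from the gene lists was chosen after seeing the data. M-MI and S-MI arrays of 1 replicate number did not deviate together.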

Additional observations from a re-analysis of the deposited data

Results flagged for a closer look

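In 132 genes the values of each group of 6 arrays were searched for a single array set apart, where the gap to its nearest neighbour was a larger share of the group's range than Dixon's 95% critical value for 6 samples. This held for 18 of 264 groups. Chance alone gives about 1 in 20 where genes are picked without regard to their values. The 132 genes include some chosen after their values had been seen, among them Oas1a, Isg15, Ifit3, Myl7 and Npas2. The count can therefore not be set against that rate.

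In M-MI there were 8. Replicate 3 was high for the interferon-stimulated genes Oas1a (8.957), Isg15 (8.31) and Ifit3 (7.902). Replicate 4 was high for Pecam1 (9.715), of endothelial junctions, and Cat (12.59), catalase. Replicate 5 was high for Myl7 (9.37), the atrial light chain, and replicate 6 for Stard10 (9.434), a lipid transfer protein, and Smad3 (7.591).

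In S-MI there were 10. Replicate 1 was high for Npas2 (8.667), of the clock. Replicate 2 was low for Pyroxd2 (5.692) and Isg15 (6.608) and high for Acta1 (12.57). Replicate 3 was low for Abcg3l3 (6.204). Replicate 4 was low for Nppb (10.5), the B-type natriuretic peptide, and high for Ckm (13.27). Replicate 6 was high for Cd14 (8.436), Actn2 (12.78) and Crip1 (10.81).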

How the results depend on the processing

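No transcript cluster was called under any of 9 other settings, 2 other thresholds or leaving out each of the 23 LV arrays in turn, and the smallest adjusted p of limma was 0.0606, without S-MI replicate 3. The count at an unadjusted p under 0.05 was 3320 to 4001 under the settings that kept all M-MI and S-MI arrays and all transcript clusters, 2909 without the 30% dimmest transcript clusters (14.2% of those tested, against 12.5% of all), 1935 without S-MI replicates 4 and 5, a choice made after seeing the data, and 2570 (without S-MI replicate 4) to 5370 (without S-MI replicate 3) when 1 array was left out. The share of intervals within a fold of 1.3 was 83.7% to 89.2%, and 81.2% to 85.8% when 1 array was left out. The separation on principal components was 1.29 with an exact permutation p of 0.1 without S-MI replicates 4 and 5, and 1.44 to 2.45 when 1 array was left out. The cause of these moves was not tested. M-MI and S-MI arrays of the same number had correlations of -0.0187 to 0.0595 between their deviations, and 2 of 6 were best with their own number. With the replicate block 0 were called, 3533 had p under 0.05 and 85.3% of intervals lay within the fold. Of the 132 named genes, 20 turned sign under at least 1 alternative, none of them among the 55 with an unadjusted p under 0.05. Such a p already places a gene away from 0 for its spread, so that the kept signs are no separate support for these genes. The arrays' number, and dim signals in the lowest part of the scale, limit what small differences can be seen.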
